A study of Mus musculus with 2 samples.

Results

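The 10 genes described here encode RNA-binding proteins that steer alternative splicing in heart and muscle: Rbm20, Rbm24, Rbfox1, Rbfox2, Celf1, Celf2, Mbnl1, Mbnl2, Ptbp1 and Ptbp2. They were chosen by symbol, as a list of known regulators, from the 55348 gene entries of the deposited count tables, and all 10 were found. Earlier results of these data were known when they and the gene lists below were chosen. RNA-seq had been run on hearts of mouse embryos at stage E13.5 of mid-gestation, strain 129sv, with 1 library of wild-type hearts and 1 library of Lmna H222P/H222P hearts. H222P is a missense mutation of Lmna, the lamin A/C gene, here on both alleles, and used to model laminopathy of heart and muscle. The labels do not give the number or sex of the hearts in a library, nor any treatment other than RNA preparation. With 1 library per genotype there was no replicate check and no test between genotypes, so each difference below lies between these 2 libraries.

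Splicing regulators of this kind bind short motifs in introns next to an exon and make the splicing machinery include or skip it. Developing heart muscle switches many exons of contractile and calcium-handling genes this way: CELF proteins and PTBP1 are linked to embryonic splice forms, whereas MBNL and RBFOX proteins promote the forms of mature muscle. RBM20 is best known for its action on titin exons, and RBM24 is a muscle-restricted activator needed for sarcomere assembly. Counts per gene measure how much RNA each regulator gene gave. They do not show which exons were included, either in the regulators or in their targets.

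Several regulators control their own RNA or that of a paralog through a short exon, and the sequences of these exons show how close the paralogs are. The first pair below is the 34-base exon of Ptbp1 (chr10:79862014-79862047, plus strand, mm10) and its counterpart in Ptbp2 (chr3:119724612-119724645, minus strand). PTBP1 is known to promote skipping of this exon in both RNAs, and the skipped RNA is degraded. The second pair is the 54-base exon of Mbnl1 (chr3:60614683-60614736, plus strand) and of Mbnl2 (chr14:120395712-120395765, plus strand), which MBNL proteins repress in their own RNA. Mbnl1 has 2 coding exons of that length, and the exon shown is in more of its transcripts. Capitals mark the bases at which the paralogs of a pair differ.
Ptbp1 exon: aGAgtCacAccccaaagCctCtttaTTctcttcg
Ptbp2 exon: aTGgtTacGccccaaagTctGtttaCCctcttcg
Mbnl1 exon: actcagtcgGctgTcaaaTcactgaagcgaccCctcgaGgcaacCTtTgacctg
Mbnl2 exon: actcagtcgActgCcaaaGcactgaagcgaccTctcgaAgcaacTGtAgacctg
The Ptbp exons shared 26 of 34 bases and the Mbnl exons 46 of 54. In GENCODE release M21, 4 of 16 Ptbp1 transcripts, 3 of 13 Ptbp2 transcripts, 5 of 25 Mbnl1 transcripts and 3 of 10 Mbnl2 transcripts held the exon. The regulators had from 3 (Rbm20) to 28 (Celf2) annotated transcripts each. A transcript marked for nonsense-mediated decay was annotated for 4 of the 10 (Rbm20, Celf2, Ptbp1 and Ptbp2) and for 27.9% of 13243 measured protein-coding genes.

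On genes, 32669225 wild-type and 25120790 Lmna H222P/H222P reads were counted. Lmna itself had 2068 and 1865 reads, and a missense mutation need not change that number. Summed over a marker list of 16 heart muscle genes, the level was 37303 CPM (read counts scaled to library size) in the wild-type and 19273 in the H222P library, and 14 of 16 were at least 1.5-fold lower. Of 10 endothelial markers 7 were at least as far below wild type (median log2 ratio −0.66), as were 7 of 10 fibroblast markers, with 1 higher (median −0.94). Liver markers summed to 35.0 and 6072 CPM, erythroid markers to 219 and 1652 CPM, and neural markers to 70.9 and 116 CPM. No gene of these 6 lists was at 0 in either library. The part of this difference in cell content in the results below was not tested. In whole hearts, fewer cells of a type and less RNA per cell cannot be told apart.

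All 10 regulators had a mean of at least 1 CPM, the bound used for calling a gene measured. Together they took 0.170% of gene reads in wild type and 0.169% in H222P, while single genes differed. This is a share of raw counts, without the scaling (TMM, a trimmed mean of gene ratios) behind the CPM values and ratios. The near equality therefore does not carry over to the scaled values. Rbm20, Rbm24, Rbfox1 and Mbnl2 were at least 1.5-fold lower in the H222P library, which is 4 of 10, against 11.4% of 14716 measured genes. None of the 10 was at least 1.5-fold higher, against 10.9% of measured genes. Mbnl1 and Ptbp1 came nearest to that bound, at 1.45-fold and 1.42-fold higher. Mbnl2 passed the bound narrowly on the lower side, at 1.52-fold, with a counting interval of 1.45 to 1.59 that holds 1.5. Celf2, at 1.33-fold lower, did not reach it. With scaling by total counts instead, 2 of 10 were at least 1.5-fold lower (Rbfox1 and Rbm20) and 2 higher (Mbnl1 and Ptbp1), against 7.74% and 15.2% of measured genes. The median log2 ratio of the 10, H222P over wild type, was −0.39, and that of all measured genes was −0.01. Intervals given with each ratio are 95% exact binomial intervals that cover counting error only.

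**Figure D1:**
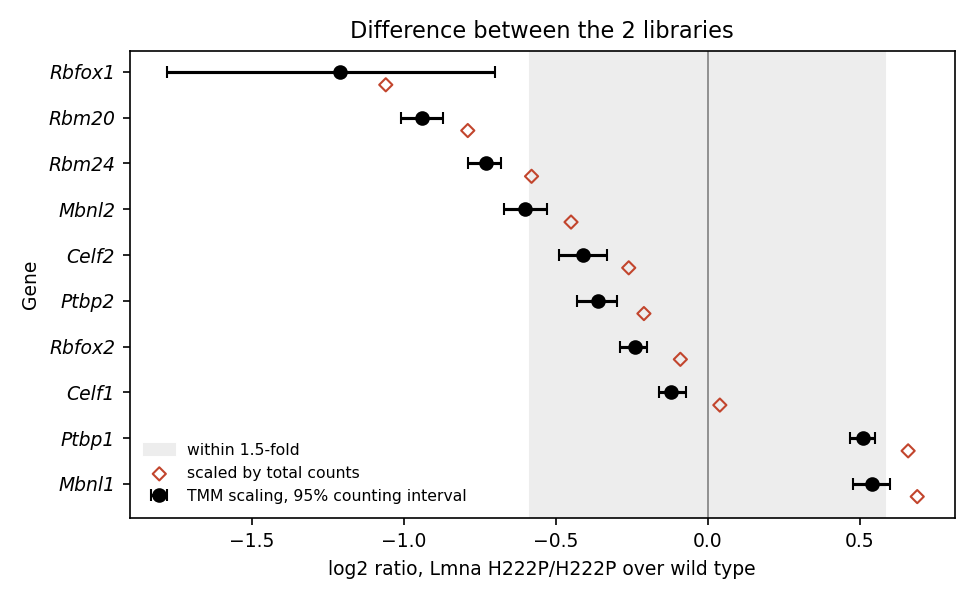
The x axis is the log2 ratio of Lmna H222P/H222P over wild type for each regulator on the y axis. Black points with bars are ratios scaled by TMM (a trimmed mean of gene ratios) with 95% counting intervals, open diamonds the ratios scaled by total counts, and the grey band spans ratios within 1.5-fold. Rbfox1, Rbm20, Rbm24 and Mbnl2 lie left of the band and only Ptbp1 and Mbnl1 lie right of 0 under TMM scaling.

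Rbm20 and Rbm24, the regulators most restricted to striated muscle, were both lower. Rbm20 (chromosome 19, 53677306 to 53867080) had 4991 wild-type and 2222 H222P reads, or 161 and 83.9 CPM. This made it 1.92-fold lower (1.83 to 2.02). Rbm24 (chromosome 13, 46418434 to 46431095) had 6982 and 3587 reads, or 225 and 135 CPM, and was 1.66-fold lower (1.60 to 1.73). The ratio of Rbm20 to Rbm24 was 0.87 times that of the wild-type library (0.81 to 0.92), a comparison that needs no scaling. On the log2 scale these ratios were −0.94 and −0.73. The 16 heart muscle markers, measured in the same libraries, had log2 ratios of −1.63 to −0.17, all below 0.

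Of the RBFOX proteins, which bind the same motif and activate many muscle exons, Rbfox2 was by far the more abundant. Rbfox2 (chromosome 15, 77078990 to 77307004) had 8895 and 6421 reads, or 287 and 242 CPM, and was 1.18-fold lower (1.15 to 1.22). Rbfox1 (chromosome 16, 5885355 to 7411526) had 112 and 41 reads, or 3.61 and 1.55 CPM. It was 2.32-fold lower, with an interval of 1.62 to 3.43 that is the widest of the 10, and was the only regulator past 2-fold, against 4.35% of measured genes at least 2-fold lower and 5.95% at least 2-fold higher. Rbfox1 took 1.24% of the reads of the pair among wild-type reads (1.02 to 1.49) and 0.634% among H222P reads (0.456 to 0.860). Rbfox3, the neuronal relative, had 5 and 29 reads and was below the bound for a measured gene.

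CELF1 and CELF2 bind GU-rich RNA and are antagonists of MBNL proteins on many developmental exons. Celf1 (chromosome 2, 90940382 to 91019497) differed least of the 10, with 10158 and 8013 reads (328 and 303 CPM) and a log2 ratio of −0.12 (−0.16 to −0.07). That ratio became 0.04 when the libraries were scaled by total counts, so Celf1 has no stable direction here. Celf2 (chromosome 2, 6539694 to 7509563) had 3502 and 2251 reads, or 113 and 85.0 CPM, and was 1.33-fold lower (1.26 to 1.40). Within the pair, Celf1 took 74.4% of wild-type reads (73.6 to 75.1) and 78.1% of H222P reads (77.3 to 78.9).

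The MBNL paralogs, the muscleblind proteins that promote mature splice forms and are sequestered in myotonic dystrophy, differed in opposite directions. Mbnl1 (chromosome 3, 60472830 to 60629750) had 3828 and 4758 reads, or 124 and 180 CPM, and was 1.45-fold higher in the H222P library (1.39 to 1.52). Mbnl2 (chromosome 14, 120275669 to 120431697) had 4814 and 2716 reads, or 155 and 103 CPM, and was 1.52-fold lower (1.45 to 1.59). Mbnl1 thus held 44.3% of the pair's wild-type reads (43.2 to 45.4) and 63.7% of its H222P reads (62.6 to 64.8). The ratio of Mbnl1 to Mbnl2 was 2.20 times as high in the H222P library (2.07 to 2.35), a log2 change of 1.14 (1.05 to 1.23), against −0.98 (−1.53 to −0.45) for Rbfox1 over Rbfox2. Mbnl3, the third paralog, had 668 and 675 reads and a log2 ratio of 0.24 (0.08 to 0.40).

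Ptbp1 and Ptbp2 are polypyrimidine tract-binding repressors, of which Ptbp1 is widespread in dividing cells and Ptbp2 is best known from neurons. Ptbp1 (chromosome 10, 79854427 to 79864771) had 7528 and 9162 reads, or 243 and 346 CPM, and was 1.42-fold higher in the H222P library (1.38 to 1.47). Ptbp2 (chromosome 3, 119718742 to 119784466) had 4824 and 3212 reads, or 156 and 121 CPM, and was 1.28-fold lower (1.23 to 1.34). The share of Ptbp1 in the pair was 60.9% in wild type (60.1 to 61.8) and 74.0% in H222P (73.3 to 74.8), and its ratio to Ptbp2 was 1.83 times as high (1.73 to 1.93). Use of the exon printed above was not measured. Ptbp3, another paralog, was 1.28-fold higher (1.24 to 1.33), with 6746 and 7398 reads. Of 11 measured neural markers, 7 were at least 1.5-fold higher in the same library and 2 had a log2 ratio below 0 (median 0.91). Any part of neural cell content in the Ptbp2 ratio was not tested.

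**Figure D2:**
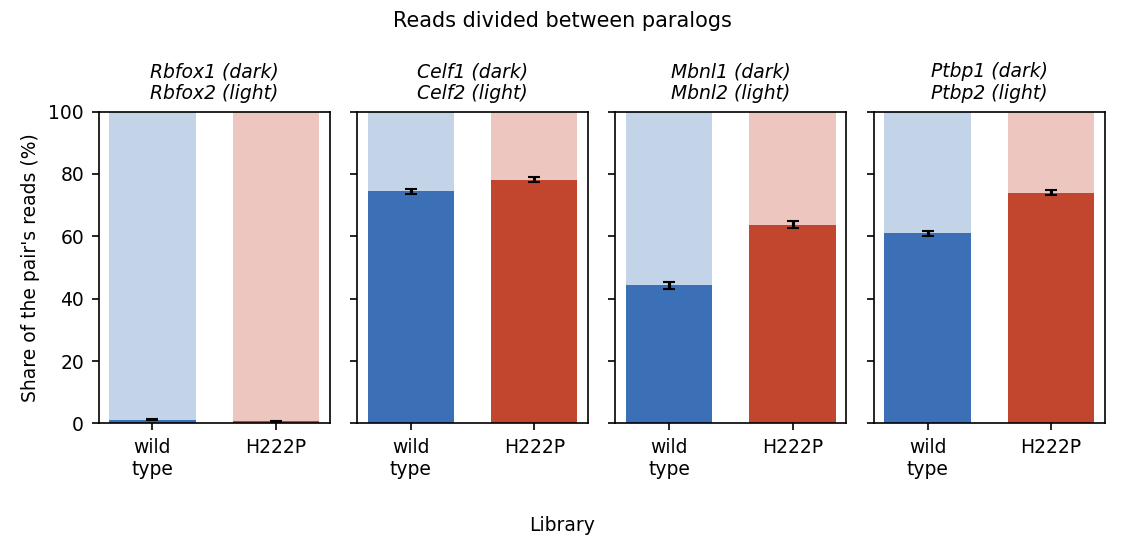
Bars divide the reads of each pair of paralogs in each library into the first gene (dark) and the second gene (light), with the y axis in percent of the pair's reads and error bars giving 95% exact binomial intervals of the first gene's share. The share of Mbnl1 moves from 44.3% to 63.7% and that of Ptbp1 from 60.9% to 74.0%, while Rbfox1 stays below 2% of its pair.

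To compare the regulators with each other, reads were divided by the length of their joined exons (RPKM, the CPM for each kilobase of exon). In the wild-type library Rbm24 was highest at 64.5 RPKM, followed by Ptbp1 at 51.3, Celf1 at 38.8, Rbfox2 at 35.3 and Rbm20 at 23.7 RPKM. Ptbp2 (17.0), Mbnl2 (13.0), Mbnl1 (6.60), Celf2 (4.37) and Rbfox1 (0.822 RPKM) came next. In the H222P library Ptbp1 was first at 73.0 RPKM and Rbm24 second at 38.8, and Rbm20 at 12.4 stood below Ptbp2 at 13.2. Mbnl1 at 9.60 RPKM stood above Mbnl2 at 8.55 RPKM there, the reverse of their wild-type order. With 1 library each, the spread of these orders over hearts is unknown. Long annotated ends of Celf2 (25884 bases of exon) and Mbnl1 (18717 bases) lower their value per length wherever shorter forms are used. Among 3 regulators with the highest wild-type value per length, Rbm24 stood at percentile 94.9 of measured genes, Ptbp1 at 93.7 and Celf1 at 91.5, and Rbfox1 stood at 13.4.

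**Figure D3:**
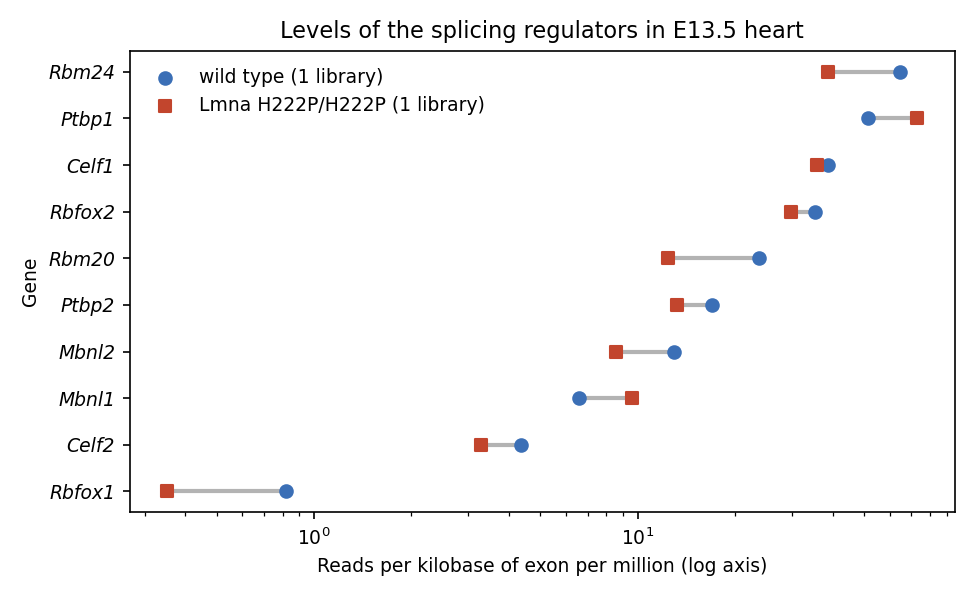
Each row is a regulator, with its level in RPKM on a log x axis, as a circle for the wild-type library and a square for the H222P library. Ptbp1 (51.3 and 73.0) and Mbnl1 (6.60 and 9.60) are the rows with the square to the right.

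Strand was taken into account because genes on the opposite strand overlap some regulators. Reads on the wrong strand were at most 1.06% (wild type) and 0.760% (H222P) of a regulator's reads. Ptbp1 shares its 3′ part with the antisense entry Gm17134 and with Plppr3, and without strand only 4327 and 5435 of its 7528 and 9162 reads could be assigned. Its log2 ratio was 0.51 with strand and 0.55 without. Inside Ptbp2, 2 entries on its own strand (Gm43300 and Gm42664) had 336 and 266 reads together, a log2 ratio of −0.11 (−0.35 to 0.13) whose interval overlaps that of Ptbp2 itself (−0.43 to −0.30).

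Promoter sequence was examined for Mbnl1 and Ptbp1, the pair of regulators with higher counts in the H222P library. The RefSeq promoter table (GRCm38.p6) held 14 start sites for 8 of the 10 regulators, with no entry for Rbm20 or Rbfox2. The 250 bases before each start were searched on both strands for GATAA, known from GATA factors, for the CCAAT box, for the SP and KLF motif GGGCGG, and for the E-boxes CAGCTG and CACGTG, the last known from MYC and USF proteins. Shown are a start of Mbnl1 (chr3:60472580-60472829, plus strand) and that of Ptbp1 (chr10:79854182-79854431, plus strand), with CACGTG and CCAAT, or its reverse ATTGG, in capitals.
Mbnl1 promoter: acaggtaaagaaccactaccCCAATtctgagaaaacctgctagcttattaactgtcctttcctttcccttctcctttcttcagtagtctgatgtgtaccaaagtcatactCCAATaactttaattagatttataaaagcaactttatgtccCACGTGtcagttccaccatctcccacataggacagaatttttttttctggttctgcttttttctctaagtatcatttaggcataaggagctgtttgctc
Ptbp1 promoter: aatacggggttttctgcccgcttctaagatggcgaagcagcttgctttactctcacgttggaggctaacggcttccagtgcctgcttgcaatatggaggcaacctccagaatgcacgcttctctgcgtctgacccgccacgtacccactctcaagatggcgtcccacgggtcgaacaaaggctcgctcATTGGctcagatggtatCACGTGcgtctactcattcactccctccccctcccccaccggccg
CACGTG was present in 2 of the 14 windows, those printed, and in 6.02% of 32851 promoters. CCAAT was in 3 of the 14 windows, those 2 and the window of Mbnl2, and in 33.8% of all promoters. GGGCGG was in 6 of 14 and 32.7%, GATAA in 1 of 14 and 22.6%, and CAGCTG in 1 of 14 and 13.0%. Celf2, Mbnl1 and Rbfox1 have more than 1 window each, so these are shares of windows, not of regulators. The other Mbnl1 window (chr3:60500929-60501178, plus strand) held neither CACGTG nor CCAAT, but 4 matches to GGGCGG. Counts per gene do not show which start of Mbnl1 was used in these hearts. The windows were picked for printing after the ratios were known, and a match of letters is a description, not a binding site.

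Genes of the wider splicing machinery mostly lay within 1.5-fold, as did 11438 of 14716 measured genes, with medians above the −0.01 of all measured genes. All 33 core spliceosome genes lay within 1.5-fold (log2 ratios −0.11 to 0.36, median 0.24), and 6 of them were below 0. Among the 33, Sf3b1, the branch-site recognition factor, was at 0.02 (−0.01 to 0.06). All 27 hnRNP and related genes, general RNA-binding repressors of splicing, also lay within 1.5-fold (−0.09 to 0.26, median 0.10), with Hnrnpa2b1 at 0.07 (0.05 to 0.09). A list of 21 genes covered SR and related proteins, many of which activate exons, their kinases and an import receptor. Of these, 20 lay within 1.5-fold and 1 was lower (median 0.12). That gene was Srpk3, a kinase of striated muscle, with 903 and 417 reads and a 1.85-fold lower level (1.65 to 2.08). Scaling by total counts, which moved the median of all measured genes from −0.01 to 0.15, raised these 3 medians to 0.39, 0.26 and 0.27 and put 2 SR list genes past 1.5-fold higher.

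Relatives of the 10 and other tissue-selective regulators had wider ranges of log2 ratio than the spliceosome and hnRNP lists. Of 12 relatives and partners 8 were measured, with a median log2 ratio of 0.29 (−0.66 to 1.05). Of these 8, 1 was at least 1.5-fold lower and 1 higher. That is 12.5% each way, against 11.4% and 10.9% of measured genes. Matr3, a nuclear matrix protein akin to RBM20, was the most abundant and was 1.31-fold lower (1.27 to 1.35). Celf4 was 1.58-fold lower on 159 and 86 reads and Celf3 2.07-fold higher on 32 and 57 reads. Both were named after their values were seen, and both had a mean under 5 CPM. Raising the bound for a measured gene to 5 CPM left 0 relatives lower and 0 higher. Celf4 was no longer past 1.5-fold with total-count scaling, nor was Celf3 when strand was ignored. The list of other tissue-selective regulators also holds widespread genes, such as Khdrbs1, so its values do not describe tissue-selective genes alone. Among its 28 measured genes none lay 1.5-fold or more below wild type and 4 lay as far above it (median 0.08). These are 0% and 14.3%, against the same 11.4% and 10.9%. With a mean of at least 5 CPM, 2 were higher. Qk, the quaking protein of muscle and glia and the most abundant of the 28, was 1.37-fold lower (1.34 to 1.40). The 4 higher genes were Elavl4 and Msi1, known from neural cells, Rbm47, known from epithelia, and A1cf, known from liver. Elavl4 was 1.87-fold higher (1.49 to 2.37) and Msi1 1.62-fold higher (1.43 to 1.85). A1cf had 0 wild-type and 231 H222P reads, a level at least 90.1-fold higher when 3 wild-type reads are assumed, and Rbm47 had 51 and 119 reads. A1cf and Rbm47 had a mean under 5 CPM and were named after their values were seen. Neural, epithelial and liver marker lists had median log2 ratios of 0.91, 0.13 and 7.51 in the same comparison. Elavl4 is itself in the neural marker list and holds its median, so the 0.91 is no separate value beside Elavl4. Elavl3 and Esrp1 of the tissue-selective list likewise belong to the neural and the epithelial marker list. Across the 127 measured genes of these lists and the 10 regulators, Rbfox1, Rbm20, Rbm24 and Mbnl2 ranked 1, 2, 4 and 6 from the lowest ratio, with Srpk3 and Celf4 between them. Ptbp1 and Mbnl1 ranked 8 and 7 from the highest.

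**Figure D4:**
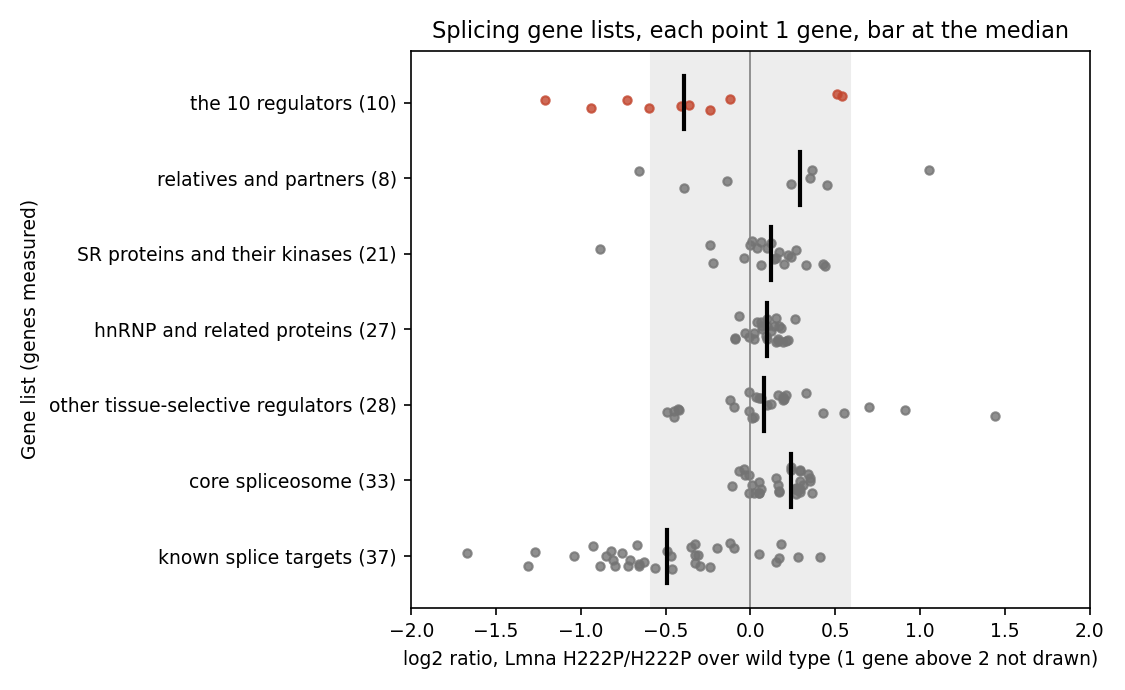
Each point is the log2 ratio of 1 gene on the x axis (H222P over wild type), by gene list on the y axis, with a bar at the median and a grey band for ratios within 1.5-fold. The spliceosome and hnRNP points all lie in the band, whereas the 10 regulators spread from −1.21 to 0.54, and A1cf, above 2, is not drawn.

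Genes whose exons these regulators are known to control were lower as a group. Of 37 heart and muscle targets, 17 were at least 1.5-fold lower and 0 higher, with a median log2 ratio of −0.49, against 11.4% and 10.9% and a median of −0.01 over measured genes. The triadin gene Trdn, of the calcium release complex, was 3.17-fold lower (3.04 to 3.31), Nexn, of the Z-disc, 2.48-fold lower (2.42 to 2.55), and cardiac troponin T (Tnnt2) 2.41-fold lower (2.38 to 2.44). Ldb3, a Z-disc target of RBM20, was 2.06-fold lower (2.00 to 2.12) and Lmo7 1.85-fold lower (1.78 to 1.92). Titin (Ttn), Camk2d and Ryr2, the best-known RBM20 targets and named here after their values were seen, were 1.65-fold, 1.70-fold and 1.37-fold lower. Fn1, fibronectin, of which splice forms differ between embryo and adult, lay nearest to a ratio of 1 with a log2 ratio of 0.05 (0.03 to 0.07). Many targets are themselves heart muscle genes, and Ttn, Tnnt2 and Ryr2 belong to the heart muscle marker list as well (14 of 16 at least 1.5-fold lower). With total-count scaling 11 of the 37 were at least 1.5-fold lower, and the median was −0.34.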

How the data were processed

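RNA-seq libraries of E13.5 hearts, 1 per genotype, were grouped by genotype as labelled. What the authors deposited are raw read counts per gene symbol, with no normalization. STAR, HTSeq, DESeq and mm10 are named in the submitters' processing notes, without versions or roles, and the annotation release was not stated. The reverse-strand column was used, which held 19.3 and 20.5 times the reads of the forward column. The 4 summary entries (17.2% and 18.0% of reads) were left out. They hold reads that were unmapped, multiply mapped, in no gene or ambiguous between genes. Multiply mapped reads have their own entry and so stay out of gene counts, which undercounts near-identical paralog stretches.

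Counts were scaled by TMM (edgeR 4.0.16, R 4.3.3; factors 0.948 and 1.05). Log2 ratios used a prior count of 0.5, and intervals are exact Clopper-Pearson (scipy 1.17.1). No molecular identifiers are named in the labels, and PCR copies may make intervals too narrow even for counting error. At these depths 3 reads equal 0.097 and 0.11 CPM. Measured genes had a mean of at least 1 CPM. Ratios of paralog shares used the conditional odds ratio. Exon lengths and coordinates come from GENCODE M21, the same assembly as mm10. The steps were tested on simulated counts.

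Text names all 10 regulators and Lmna and, in each of 6 lists, the most abundant gene, the gene nearest to a ratio of 1, and up to 5 in each direction at least 1.5-fold apart with a mean of at least 5 CPM. Not every gene so eligible is named. Rbfox3, Mbnl3, Ptbp3, Celf3, Celf4, A1cf, Rbm47, Ttn, Camk2d and Ryr2 lie outside this rule and were named after their values were seen. The regulators and the lists were chosen with earlier results of these data known. Alternatives tried were scaling by DESeq2 1.42.0, by total counts and without liver, erythroid and globin genes, unstranded counts, a prior count of 5, no filter, a mean of at least 5 CPM, thinning of the deeper library, and means for medians.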

Additional observations from a re-analysis of the deposited data

How the results depend on the processing

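No paired analysis was possible because each genotype has 1 library. Scaling by total counts moved the number of regulators at least 1.5-fold lower from 4 to 2 (Rbfox1 and Rbm20), the number at least 1.5-fold higher from 0 to 2 (Mbnl1 at 0.69 and Ptbp1 at 0.66 on the log2 scale) and the median log2 ratio from −0.39 to −0.23. This scaling leaves out the TMM factors (0.948 and 1.05), which shifts every log2 ratio by the same amount. The median of all measured genes thereby rose from −0.01 to 0.15. What made the factors differ was not tested. The other 7 alternatives for these 3 results kept the counts within 1.5 times and gave a median of −0.41 to −0.36. The shifts within the 4 pairs of paralogs kept their direction and stayed within their intervals without strand and after thinning. Over all alternatives Rbm20 ranged from −0.97 to −0.79, Rbm24 from −0.76 to −0.58 and Mbnl2 from −0.63 to −0.45. Celf2 ranged from −0.44 to −0.26, Ptbp2 from −0.39 to −0.21 and Rbfox2 from −0.27 to −0.09. Mbnl1 ranged from 0.51 to 0.69 and Ptbp1 from 0.48 to 0.66, and only Celf1 (−0.14 to 0.04) changed sign. Rbfox1 was below a mean of 5 CPM and has no value under that filter. Depth limits Rbfox1 alone, with 112 and 41 reads. Variation between hearts was not measured.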
